A study of Rattus norvegicus with 743 samples.

Results

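Amoxicillin, flucloxacillin, cefprozil and cefuroxime are beta-lactam antibiotics, and each was given on its own to a group of rats in this liver RNA-seq series. The libraries were taken by their treatment label, and each treated group was set against the vehicle libraries of the same study, batch number and vehicle label. This gave 16 treated libraries of 743 in the series (4 per compound) and 15 vehicle libraries (4 per study, 3 for cefprozil), each from an animal of its own. The rats were male Sprague Dawley rats dosed daily for 4 days and killed a day after the last dose. The dose label, read here as mg/kg per day, was 750 for amoxicillin, and the flucloxacillin, cefprozil and cefuroxime groups received 600. Every treated and vehicle group received a methylcellulose suspension in deionized water, with or without compound. One dose and one time were sampled for each compound, in animals with no infection named in the labels. Each treated group was compared only with vehicle animals of its own study, so the vehicle groups of the 4 comparisons share no animal.

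Beta-lactams kill bacteria by acylating the enzymes that cross-link the bacterial cell wall, for which animal cells have no counterpart. Amoxicillin and flucloxacillin are penicillins, in which the lactam ring is fused to a sulphur-containing ring with 5 members (a penam). Cefprozil and cefuroxime are cephalosporins, in which the fused ring has 6 members (a cephem). The side chains cross this division: amoxicillin and cefprozil both carry a para-hydroxyphenylglycine group, flucloxacillin carries a halogenated phenylisoxazole and cefuroxime a furyl methoxyimino group. The penicillins and cephalosporins leave the body largely unchanged through kidney and bile by organic anion and peptide transporters. In the clinic, amoxicillin given with clavulanic acid and flucloxacillin are known for rare idiosyncratic cholestatic liver injury. The question here was whether the compounds share small changes in liver expression, and whether they differ.

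Library totals ran between 14.8 and 39.077 M counts with a median of 18.832 M. The 17 hepatocyte markers summed to between 167000 and 226000 CPM (counts scaled to a common library size) in every library, and no group stood apart in them. RNA integrity numbers averaged 8.2 and 7.875 in the amoxicillin and vehicle groups, 8.05 and 8.25 in the flucloxacillin and vehicle groups, and 8.6 and 8.575 in the cefuroxime and vehicle groups. In the cefprozil study they did not overlap, at 8.2 to 8.4 in treated and 6.9 to 7.6 in vehicle livers. A pair of libraries stood apart in skeletal muscle transcripts, a list chosen after seeing the data. These genes summed to 53.5 CPM in amoxicillin replicate 3 and to 3270 CPM in cefprozil vehicle replicate 3, against at most 6.19 CPM elsewhere. Amoxicillin replicate 3 also had the highest summed macrophage markers of the 31 livers (1790 CPM, against 654 to 1030 CPM in the others).

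Across the 4 beta-lactams most called changes were small, and the gene list farthest from 0 held genes that drive cell division, which were lower. Averaged over the 4 compounds, 414 of 13577 genes tested (3.05%) passed an adjusted p of 0.05 in edgeR's quasi-likelihood test, 180 higher (1.33%) and 234 lower (1.72%). At an unadjusted p under 0.05 edgeR had 2508 genes (18.5%), and DESeq2 called 679. Among the 414 the sizes were small, with a median absolute log2 fold change of 0.38 and 70 genes at 1 or more. Of the 414, 351 had the same sign after all 4 compounds (131 higher, 220 lower), a count that choosing genes by the average itself favours. A stricter question, whether a gene changed after every one of the 4 compounds, was answered by the largest of its 4 p-values. Here edgeR called 0 genes (smallest adjusted p of 1), and at an unadjusted p under 0.05 there were 23 genes of the same sign (0.169%), of which 20 were lower (0.147%). The count of 414 was 93 without cefuroxime and its vehicle group, 177 without cefprozil's, 195 without amoxicillin's and 397 without flucloxacillin's. With both muscle-bearing libraries left out it was 325.

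The cell-cycle genes that fell were mainly those with which a cell enters and finishes mitosis, and most of the listed genes for copying DNA did not pass. Adult hepatocytes divide rarely, and in growing rats a small share is still cycling (the labels give no age). In resting cells the DREAM complex sits on CHR letters near the start of many mitotic genes and holds them down. Before mitosis B-MYB and FOXM1 take its place there, and the factor NF-Y acts from CCAAT letters nearby. In bulk liver, fewer cycling cells and less of each transcript per cycling cell cannot be told apart. Only 3 of the 13577 genes (0.0221%) were lower in every treated animal than in every vehicle animal in each of the 4 comparisons, and 0 were higher in this way. They were Ccnb1 (ENSRNOG00000058539), Top2a (ENSRNOG00000053047) and Cdkn3 (ENSRNOG00000009785). Cdkn3 was not on the lists and was added after its values were seen.

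The stretches of 250 bases before the transcription start of these 3 genes and of Cdc20, the gene with the smallest p-value on the proliferation list, are shown because mitotic genes are known to be switched as a block. They are RefSeq promoter entries of build GRCr8, read 5′ to 3′ along the gene, and lie at chr2:33655226-33655475 on the minus strand (Ccnb1), chr10:84473094-84473343 on the minus strand (Top2a), chr15:22502136-22502385 on the plus strand (Cdkn3) and chr5:137255800-137256049 on the minus strand (Cdc20). Capitals mark the letters CCAAT (or ATTGG on the other strand) and the CHR letters on either strand. The CHR letters searched were TTTGAA as the common form, with TTCGAA and also the form TTTAAA as its variants. Cdkn3 has 2 promoter entries, of which the first is shown.
Ccnb1: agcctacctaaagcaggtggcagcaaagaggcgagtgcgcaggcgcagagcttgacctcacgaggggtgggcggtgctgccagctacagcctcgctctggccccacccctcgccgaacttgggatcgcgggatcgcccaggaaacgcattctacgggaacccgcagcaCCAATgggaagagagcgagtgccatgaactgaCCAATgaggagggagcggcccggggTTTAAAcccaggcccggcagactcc
Top2a: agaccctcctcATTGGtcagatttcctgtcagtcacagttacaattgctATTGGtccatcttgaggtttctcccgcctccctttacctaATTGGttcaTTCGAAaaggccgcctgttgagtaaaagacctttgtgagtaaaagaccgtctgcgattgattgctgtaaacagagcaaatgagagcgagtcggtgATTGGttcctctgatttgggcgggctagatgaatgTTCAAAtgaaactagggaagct
Cdkn3: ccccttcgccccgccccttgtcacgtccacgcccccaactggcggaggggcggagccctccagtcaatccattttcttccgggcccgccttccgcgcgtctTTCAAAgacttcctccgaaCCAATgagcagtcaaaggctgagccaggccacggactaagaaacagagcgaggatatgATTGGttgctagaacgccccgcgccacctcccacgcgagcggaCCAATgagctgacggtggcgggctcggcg
Cdc20: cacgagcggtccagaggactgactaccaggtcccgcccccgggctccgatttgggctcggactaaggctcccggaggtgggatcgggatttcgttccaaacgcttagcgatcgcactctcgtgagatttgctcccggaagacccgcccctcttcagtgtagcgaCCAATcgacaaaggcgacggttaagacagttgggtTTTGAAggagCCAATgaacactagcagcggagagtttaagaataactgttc
Ccnb1 held 2 CCAAT boxes, 32 bases apart and starting 82 and 50 bases before the start, and 1 CHR match 25 bases before it. Top2a held 4 CCAAT boxes and 2 CHR matches, Cdkn3 held 3 and 1, and Cdc20 held 2 and 1. No CCAAT box overlapped a CHR match in these 4 stretches. Of the 20 proliferation genes called lower below, 16 had a promoter entry, and 13 of these (81.2%) held CCAAT, 14 (87.5%) a CHR match and 11 (68.8%) both. Of all 33469 promoter entries in the table, 34.0% held CCAAT, 26.5% a CHR match and 9.43% both. A called gene counted as a match if any of its entries held the letters, whereas the background counts each entry. A gene with several entries had more chances, so these shares are not on the same base. A match of letters is a description and shows no binding.

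Ccnb1 encodes cyclin B1, which with CDK1 triggers entry into mitosis. It measured 0.0878, 0.16, 0.28 and 0.41 CPM in the 4 amoxicillin livers, against 1.7, 1.01, 1.49 and 0.688 CPM in vehicle livers. It measured 0.99, 0.129, 0.459 and 0.187 CPM in flucloxacillin livers, against 1.93, 4.72, 3.85 and 2.77 CPM in vehicle livers. Both sets of treated livers lay wholly below their vehicle livers. It measured 0.371, 0.712, 0.261 and 0.0575 CPM in cefprozil livers, against 1.11, 4.4 and 0.959 CPM in vehicle livers. It measured 0.272, 0.426, 0.502 and 0.22 CPM in cefuroxime livers, against 1.16, 0.729, 0.875 and 0.863 CPM in vehicle livers. These groups did not overlap either, with the narrowest gap in the cefuroxime study. The average log2 fold change of Ccnb1 was −2.30 ± 0.30 (SE, n = 16 treated and 15 vehicle animals, edgeR adjusted p = 3.78e-05). Transcripts at this level rest on few reads in treated livers.

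Top2a encodes the topoisomerase that untangles replicated DNA before the chromosomes part. Its level was 0.702, 0.576, 0.721 and 0.923 CPM in amoxicillin livers, against 2.11, 2.35, 2.73 and 1.06 CPM in vehicle livers. In flucloxacillin livers it was 1.35, 1.04, 0.826 and 0.374 CPM, against 3.52, 9.44, 3.78 and 2.77 CPM in vehicle livers. One vehicle liver of the flucloxacillin study was far above the others, and the lowest vehicle liver was still above every treated one. In cefprozil livers it was 0.882, 1.36, 0.849 and 0.632 CPM, against 1.52, 4.4 and 1.86 CPM in vehicle livers. In cefuroxime livers it was 1.2, 1.07, 0.613 and 0.33 CPM, against 3.06, 1.28, 2 and 1.54 CPM in vehicle livers. The gap was again narrowest for cefuroxime. On average Top2a had a log2 fold change of −1.67 ± 0.23 (SE, edgeR adjusted p = 4.64e-05).

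Cdkn3 encodes a phosphatase that acts on cyclin-dependent kinases and peaks in dividing cells. It stood at 0.176, 0.224, 0.36 and 0.0513 CPM in amoxicillin livers, against 0.644, 1.61, 1.92 and 0.505 CPM in vehicle livers. It stood at 0.634, 0.388, 0.688 and 0.337 CPM in flucloxacillin livers, against 1.26, 3.12, 3.1 and 5.34 CPM in vehicle livers. Levels in the vehicle livers were spread more widely than those in the treated livers of both studies. It stood at 0.464, 0.323, 0.849 and 0.23 CPM in cefprozil livers, against 1.05, 4.17 and 2.88 CPM in vehicle livers, and at 0.272, 0.107, 0.502 and 0.44 CPM in cefuroxime livers, against 0.817, 0.607, 0.875 and 1.41 CPM in vehicle livers. Its average log2 fold change was −2.27 ± 0.28 (SE, edgeR adjusted p = 2.07e-05). Ccnb1, Top2a and Cdkn3 stayed called in every alternative tried and without each animal in turn.

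**Figure D1:**
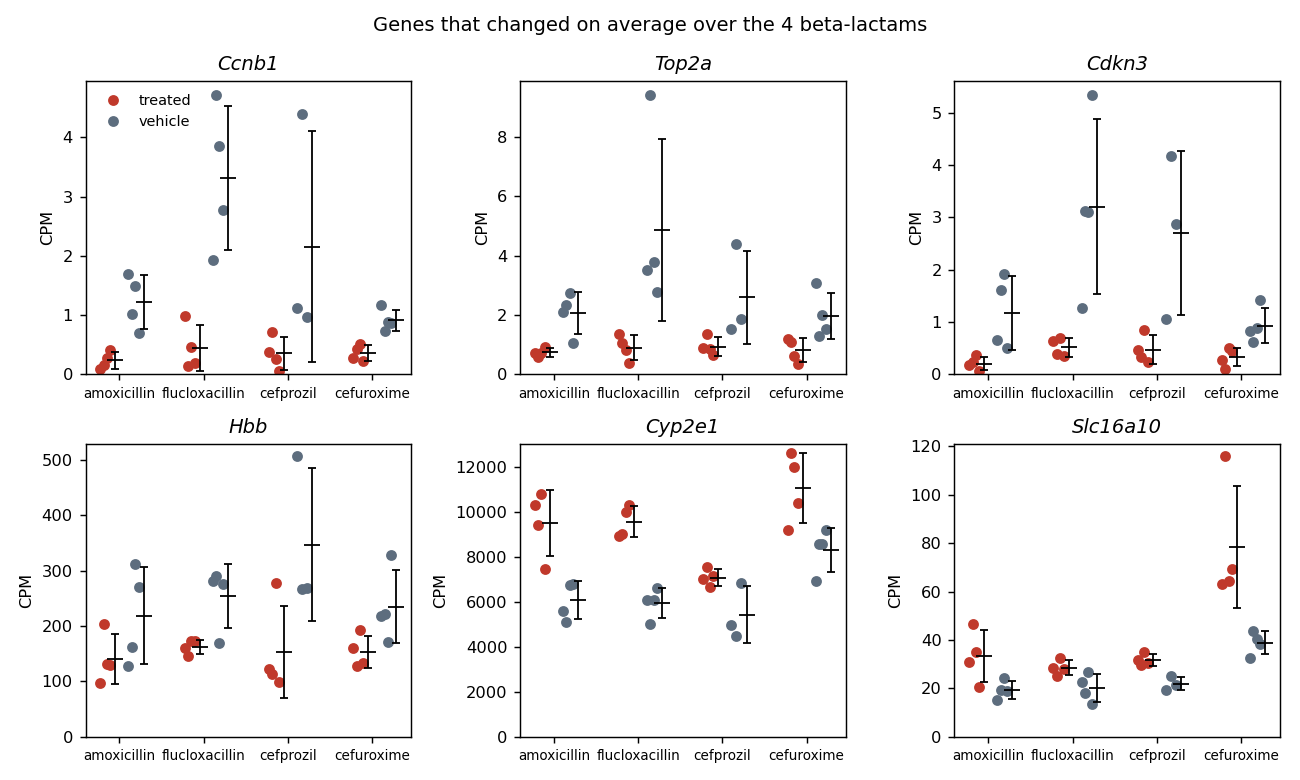
CPM of 6 genes in each liver (points), with treated livers left of the vehicle livers of the same study and the mean and SD of each group as black bars. Ccnb1, Top2a and Cdkn3 are lower in every treated liver than in every vehicle liver of its study, whereas the groups overlap for Hbb in each study.

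Of 30 genes listed for proliferation, 29 were tested, and Ccnb2 was not among the genes tested. All 29 had an average log2 fold change below 0, with a median of −1.14, against 0.01 over all genes tested. Of the 29, 20 fell past the threshold (1.72% of all genes tested did so) and 0 rose. With no filter on low counts 19 fell. The list is not independent of earlier results of these data.

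By role, the steepest falls were in genes of mitotic entry and spindle work. These genes were scarce. Treated and vehicle livers had means of 0.177 and 1.15 CPM for Cdca3, 0.3 and 1.46 CPM for Cdk1, and 0.322 and 1.07 CPM for Plk1. For Prc1 the means were 0.537 and 2.08 CPM, and for Nusap1 0.305 and 1.21 CPM. Falls at such levels rest on few reads in treated livers. Cdca3, which helps degrade an inhibitor of mitotic entry, fell by 2.52 on the log2 scale. Cdk1, the kinase partner of cyclin B1, fell by 2.11 and the kinase gene Plk1 by 1.65. Prc1 and Nusap1, which bundle spindle microtubules, fell by 1.88 and 1.87, and the kinesin gene Kif20a by 1.14. Cdc20, which activates the anaphase-promoting complex, fell by 1.65 (SE 0.19, edgeR adjusted p = 1.32e-05). Checkpoint and chromosome passenger genes fell as well, with Aurkb at −1.46, Bub1b at −1.24, Birc5 at −1.15, Bub1 at −0.70, Aurka at −0.64 and Cdca8 at −0.63. The call of Cdca8 was lost in 6 of 11 alternative settings and in 17 of 31 fits without 1 animal, and that of Bub1b in 3 of 10 and in 4 of 31. Aurka lost its call in 2 of 11 settings, and Aurkb and Bub1 in 1 of 11 each. Mki67, the common marker of cycling cells, fell by 1.39.

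Among genes of the earlier cell-cycle phases 4 passed and 9 did not. Ccna2 (cyclin A2, active in S phase and after it) fell by 1.85. Rrm2, a subunit of ribonucleotide reductase, fell by 1.87 and had at most 1.2 CPM in any liver, and its call was lost in 4 of 31 fits without 1 animal. Ccnd1, the cyclin of early G1, fell by 0.98, with a mean of 20.6 CPM in treated and 39.8 CPM in vehicle livers. Its groups overlapped in every study, and its call was lost in 3 of 11 settings. Of the helicase loader genes Mcm2 to Mcm7, Mcm5 fell by 0.96 and the other 5 did not pass, with log2 fold changes of −0.38 (Mcm6), −0.36 (Mcm3), −0.17 (Mcm2 and Mcm7) and −0.08 (Mcm4). The call of Mcm5 was lost in 1 of 11 settings. Tk1, Ccne2, Tyms and Pcna also did not pass, at −0.26, −0.11, −0.10 and −0.09. Whether mitotic and replication genes differ in size of change was not tested.

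**Figure D2:**
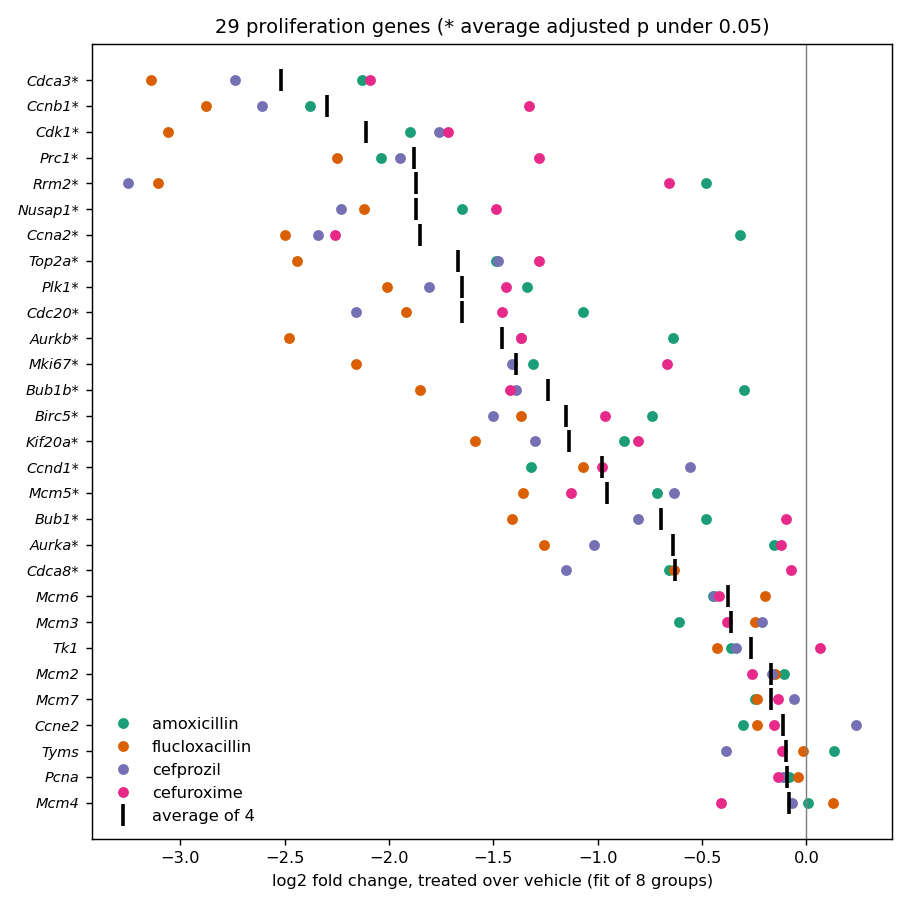
Log2 fold change (treated over vehicle, fit of 8 groups) of the 29 proliferation genes for each compound (coloured points) and on average (black bars), with an asterisk where the average passed an adjusted p of 0.05. The averages run between −2.52 for Cdca3 and −0.08 for Mcm4.

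Summed over the 29 genes, each treated liver lay below each vehicle liver of its study. The sums ran between 67.4 and 75.3 CPM in amoxicillin livers, against 79.7 to 161 CPM in vehicle livers. They ran between 69 and 86.8 CPM in flucloxacillin livers, against 130 to 174 CPM in vehicle livers. The gap was widest there. They ran between 77.5 and 98.3 CPM in cefprozil livers, against 101 to 153 CPM in vehicle livers, and between 71.3 and 82.6 CPM in cefuroxime livers, against 86.5 to 139 CPM in vehicle livers. The 4 treated groups thus covered a narrower range of sums than the 4 vehicle groups. Ccnd1 had the highest mean of the 29 genes, 20.6 CPM in treated and 39.8 CPM in vehicle livers, and so weighed most in these sums. The separation was also present in the mean log2 level of the genes, which gives each gene the same weight (0.654 to 1.11 in treated livers, 0.91 to 2.1 in vehicle livers, without overlap inside any study). Batch number was 1 in the flucloxacillin study and 3 in the other studies, and the separation stood in both. Batch number did not differ between treated and vehicle livers of a study, but sequencing lanes did. By the raw file names, treated and vehicle livers shared no lane in the flucloxacillin and cefprozil studies. In the amoxicillin and cefuroxime studies a treated and a vehicle liver shared a lane. Whether lane plays a part was not tested.

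**Figure D3:**
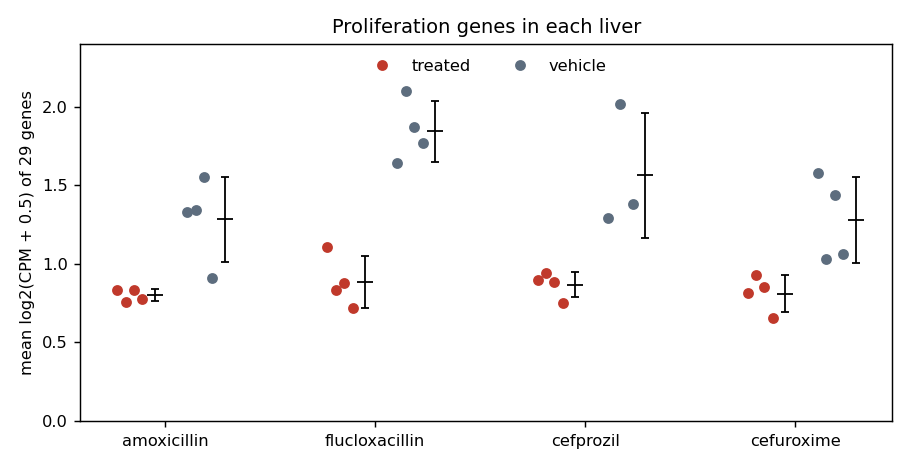
Mean log2(CPM + 0.5) of 29 proliferation genes in each liver (points), treated left of vehicle for each compound, with mean and SD as black bars. Treated livers run between 0.654 and 1.11, and each lies below all vehicle livers of its study.

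The number of single genes that showed this separation varied between compounds, and that variation was not tested. After flucloxacillin 18 of the 29 genes were lower in all treated than in all vehicle livers (1.79% of all genes tested were), and the median log2 fold change over the 28 genes tested in its own study was −1.39. After cefprozil it was 11 of 29 (background 4.79%) with a median of −0.90 over 24 genes. After cefuroxime it was 8 of 29 (background 4.07%) with a median of −0.41 over 22 genes, and after amoxicillin 6 of 29 (background 1.62%) with a median of −0.63 over 22 genes. Genes tested within 1 study had to pass the count filter there, which a gene can do through its vehicle livers alone, and members with large falls, such as Cdk1 and Cdca3, were left out in some studies. In the fit of 8 groups, where each compound has the same 29 genes, the medians were −0.64 after amoxicillin, −1.41 after flucloxacillin, −1.30 after cefprozil and −0.81 after cefuroxime. Amoxicillin and cefuroxime thus change places between the fits. The filter of the fit of 8 groups can also be passed through vehicle livers alone. In edgeR 0 genes of the list passed the adjusted threshold in any single study, with 9, 19, 13 and 10 lower at an unadjusted p under 0.05 after amoxicillin, flucloxacillin, cefprozil and cefuroxime. Of all genes tested in these studies 3.12%, 2.91%, 4.2% and 7.19% were lower by that measure. For cefprozil the higher RNA integrity of treated livers moved with these values, and with integrity as a covariate in the fit of all 4 compounds 16 of the 29 genes were called lower.

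Mki67 shows the spread between compounds. It measured 1.19, 0.992, 1.28 and 0.769 CPM in amoxicillin livers, against 2.63, 2.82, 3.72 and 1.47 CPM in vehicle livers. It measured 2.46, 1.38, 2.48 and 0.898 CPM in flucloxacillin livers, against 5.4, 11.5, 9.11 and 6.18 CPM in vehicle livers. Neither pair of groups overlapped. It measured 2.6, 1.94, 1.5 and 1.26 CPM in cefprozil livers, against 3.52, 6.46 and 4.74 CPM in vehicle livers. It measured 1.69, 2.19, 2.06 and 1.49 CPM in cefuroxime livers, against 4.08, 1.34, 2.87 and 3.5 CPM in vehicle livers, where 1 vehicle liver lay below all treated ones. The 3 compounds given at 600 mg/kg had log2 fold changes of −2.16 (flucloxacillin), −1.41 (cefprozil) and −0.67 (cefuroxime), and amoxicillin at 750 mg/kg had −1.31.

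Some red cell transcripts, which in adult liver come mainly from blood left in the tissue, were also lower. Of 9 erythroid markers 7 were tested, 3 of them fell (1.72% of all genes tested did), 0 rose, and the median log2 fold change was −0.77. Hbb, a beta globin gene (ENSRNOG00000058105), measured 96.8, 204, 131 and 130 CPM in amoxicillin livers, against 128, 162, 312 and 271 CPM in vehicle livers. It measured 160, 145, 172 and 172 CPM in flucloxacillin livers, against 281, 291, 169 and 276 CPM in vehicle livers. The groups overlapped in both studies. It measured 123, 113, 277 and 99.5 CPM in cefprozil livers, against 507, 266 and 268 CPM in vehicle livers, and 160, 128, 192 and 133 CPM in cefuroxime livers, against 218, 222, 171 and 328 CPM in vehicle livers. Here too the groups overlapped, by a single treated or vehicle liver. For Hbb (ENSRNOG00000058105), average log2 fold change was −0.77 ± 0.16 (SE, edgeR adjusted p = 0.00796). It did not pass with RNA integrity as a covariate (adjusted p = 0.0569) or without cefuroxime (0.0595).

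Alas2, the first enzyme of heme synthesis in red cell precursors, fell by 0.83, and a pair of rows named Hba-a2 (alpha globin) fell by 0.84 and 0.78. These rows are near-identical copies that may share reads, so their separate values are uncertain. Slc4a1, the anion exchanger of the red cell membrane, had −0.13 and did not pass. Over the alternatives the adjusted p of Alas2 reached 0.153, and it did not pass with RNA integrity as a covariate or without any 1 of the compounds. Summed erythroid markers ran between 233 and 706 CPM in treated livers and between 323 and 1390 CPM in vehicle livers. Whether the share of blood in the samples plays a part in the fall of proliferation genes was not tested.

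Genes outside the cell cycle are named by rule: up to 12 called genes in each direction with the smallest p-values, a mean of at least 5 CPM and the same sign after all 4 compounds. Among the increases, Cyp2e1 had the smallest p-value. Cyp2e1 (ENSRNOG00000012458) is a P450 of the hepatocytes around the central vein that oxidises ethanol, acetaminophen and ketones. It measured 10300, 9430, 10800 and 7450 CPM in amoxicillin livers, against 5590, 5110, 6760 and 6800 CPM in vehicle livers. It measured 8910, 9020, 9970 and 10300 CPM in flucloxacillin livers, against 6090, 5010, 6090 and 6620 CPM in vehicle livers. All treated livers of both penicillins were above their vehicle livers. It measured 6990, 7530, 6640 and 7140 CPM in cefprozil livers, against 4970, 4480 and 6850 CPM in vehicle livers. It measured 9210, 12600, 12000 and 10400 CPM in cefuroxime livers, against 6920, 8550, 8560 and 9200 CPM in vehicle livers. The cefprozil groups overlapped and the cefuroxime groups met without overlapping. The average log2 fold change was 0.53 ± 0.07 (SE, edgeR adjusted p = 4.64e-05), and it stayed called in every alternative, where the adjusted p ran between 3.68e-11 and 0.00721.

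Slc16a10, a transporter of aromatic amino acids and thyroid hormones (ENSRNOG00000000588), rose on average by a log2 fold change of 0.70 ± 0.11 (SE, edgeR adjusted p = 0.000388). It measured 63.3, 116, 64.6 and 69.3 CPM in cefuroxime livers, against 32.7, 43.8, 40.5 and 38.5 CPM in vehicle livers. It measured 31.9, 29.6, 35.1 and 30.5 CPM in cefprozil livers, against 19.4, 25 and 21.6 CPM in vehicle livers. The cephalosporin groups did not overlap. Amoxicillin livers had 30.8, 46.7, 35 and 20.6 CPM, against 15.2, 19.3, 24.4 and 18.9 CPM in vehicle livers, and flucloxacillin livers had 28.6, 25.1, 32.6 and 28.2 CPM, against 22.8, 18.1, 26.7 and 13.5 CPM in vehicle livers. The penicillin groups overlapped.

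The other named increases were of mixed function. Sardh (sarcosine dehydrogenase, one-carbon metabolism) rose by a log2 fold change of 0.31, Tst (a mitochondrial sulphurtransferase that detoxifies cyanide) by 0.31 and Slc39a14 (a zinc and manganese importer) by 0.24. The chromatin and transcription genes Med13, Arid2 and Chd9 rose by 0.48, 0.50 and 0.70. Bmpr2, a receptor of bone morphogenetic proteins, rose by 0.44, Dsg2 (a desmosomal cadherin) by 0.30, Rbm27 by 0.42 and Dennd4c by 0.55. Of these, Dennd4c, Med13, Arid2, Chd9, Rbm27, Bmpr2 and Sardh had their largest change after cefuroxime, and Med13, Arid2 and Rbm27 had 0.11, 0.04 and 0.10 after flucloxacillin. Dsg2 and Dennd4c kept their calls in the alternatives, and each of the others in this paragraph lost its call in 1 or 2 of 11 settings.

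Among the decreases, Rdh5 had the smallest p-value. Rdh5, a retinol dehydrogenase (ENSRNOG00000053850), measured 37.7, 23.5, 27 and 26.3 CPM in amoxicillin livers, against 47.7, 44.2, 52.7 and 29.8 CPM in vehicle livers. It measured 16.6, 22.1, 21.1 and 23.3 CPM in flucloxacillin livers, against 26, 25.9, 32.3 and 33 CPM in vehicle livers. The amoxicillin groups overlapped and the flucloxacillin groups did not. It measured 31.5, 32.3, 37.7 and 27.9 CPM in cefprozil livers, against 53.3, 40.8 and 31.8 CPM in vehicle livers, and 27, 29.1, 20.7 and 24.9 CPM in cefuroxime livers, against 33.7, 37.2, 40.5 and 44.9 CPM in vehicle livers. The cefprozil groups overlapped and the cefuroxime groups did not. Its average log2 fold change was −0.52 ± 0.09 (SE, edgeR adjusted p = 0.000873).

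The other named decreases were also of mixed function. Acsf2, an acyl-CoA synthetase, fell by 0.50, Pck2, the mitochondrial form of phosphoenolpyruvate carboxykinase, by 0.45, Coq8b, needed for coenzyme Q synthesis, by 0.24 and the disaggregase gene Clpb by 0.21. Cd99 fell by 0.39, Sat2 by 0.32, the Polycomb gene Pcgf2 by 0.50 and the intraflagellar transport gene Ift27 by 0.39. Phlda3 and Bax, both known targets of p53, fell by 0.80 and 0.28. They were the only 2 called of 13 tested members of the p53 list (1.72% of all genes tested fell), while Cdkn1a had 0.22 and did not pass. Phlda3 changed by −1.05, −1.13 and −0.88 after flucloxacillin, cefprozil and cefuroxime, and by −0.13 after amoxicillin. Acsf2 and Cd99 kept their calls in the alternatives, and each of the others in this paragraph that fell lost its call in 1 or 2 of 11 settings.

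Drug-metabolism and transport genes gave few calls. Over all genes tested, 1.33% rose past the threshold on average and 1.72% fell. Of 6 tested targets of the aryl hydrocarbon receptor 1 rose, Cyp1a2, by a log2 fold change of 0.36, whereas Cyp1a1 had 0.38 and did not pass. The call of Cyp1a2 was lost in 4 of 11 settings, with an adjusted p of up to 0.334, and in 1 of 31 fits without 1 animal. Of 14 tested targets of the constitutive androstane receptor 1 rose and 1 fell. The gene that rose was Abcc3, an export pump for bile salts and glucuronides on the blood side of hepatocytes, with a log2 fold change of 0.92 ± 0.22 (SE, edgeR adjusted p = 0.021). The gene that fell was Cyp2b1, with −0.92 ± 0.25 (adjusted p = 0.0409), a call lost in 20 of 31 fits without 1 animal. Its reads may be shared with Cyp2b2, which had −0.96 and did not pass (adjusted p = 0.0593). Of 9 tested targets of the pregnane X receptor 1 fell (Ugt1a1, by 0.28, lost in 21 of 31 such fits), and Cyp3a23/3a1 had −0.09 without passing. Of 25 tested NRF2 targets Abcc3 was the one called, and Nqo1 had 0.45 with an adjusted p of 0.231. Of 13 tested organic anion and peptide transporters Abcc3 was again the one called, and Slc22a7, a renal and hepatic anion uptake carrier, had −0.26 (adjusted p = 0.0667).

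Abcc3 measured 16.9, 13.8, 13.6 and 13.3 CPM in amoxicillin livers, against 12.9, 4.37, 7 and 5.23 CPM in vehicle livers. It measured 22.7, 9.06, 7.51 and 9.77 CPM in cefprozil livers, against 6.33, 4.23 and 3.84 CPM in vehicle livers. Neither pair of groups overlapped. It measured 24.5, 16.2, 23.4 and 16 CPM in flucloxacillin livers, against 11.9, 14.6, 3.85 and 22 CPM in vehicle livers, and 6.48, 12.5, 25.2 and 11.2 CPM in cefuroxime livers, against 7.15, 5.83, 9.62 and 10.2 CPM in vehicle livers. These groups overlapped. For Abcc3 (ENSRNOG00000002948), average log2 fold change lost its call with RNA integrity as a covariate (adjusted p = 0.0521) and with both muscle-bearing libraries left out (0.0527). It was also lost without amoxicillin (0.0997), cefprozil (0.123) or cefuroxime (0.0896).

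Lipid genes moved by small amounts and gave few calls, where 1.33% of all genes tested rose past the threshold and 1.72% fell. Of 24 cholesterol synthesis genes, which SREBP2 raises when cells need sterol, 1 rose, 0 fell and 22 were above 0, with a median of 0.18. Hsd17b7, a ketoreductase of the pathway, was the gene called, with a log2 fold change of 0.43, and lost its call in 2 of 11 settings. In the fits of the single studies, the median over the list was 0.30 after amoxicillin, 0.36 after cefprozil and 0.19 after cefuroxime, but −0.15 after flucloxacillin, where 20 of 24 genes were below 0. Of 16 tested bile acid genes 2 rose, Cyp27a1 of the alternative synthesis route (0.25, lost in 4 of 11 settings) and Abcc3. Of 32 tested PPARalpha targets 30 were below 0 with a median of −0.15, and 0 passed (2 at an unadjusted p under 0.05, both lower, where 18.5% of all genes tested were under it). The lowest were the acyl-CoA thioesterase genes Acot1 (−1.77, adjusted p = 0.138) and Acot2 (−0.74, adjusted p = 0.0764), and Cyp4a1 had −0.12.

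Stress and immune lists gave few calls, where 1.72% of all genes tested fell past the threshold and 1.33% rose. Of 16 ER chaperones 2 fell, Sdf2l1 by 0.45 and Pdia6 by 0.20, while Hspa5 had 0.01, and both calls were lost in some fits without 1 animal (11 and 25 of 31). Of 22 tested interferon and antigen presentation genes edgeR called 0 (1 at an unadjusted p under 0.05, higher). Their median was 0.43 after flucloxacillin and 0.20 after amoxicillin, but −0.36 after cefuroxime and near 0 after cefprozil in the fits of the single studies. The highest interferon score belonged to amoxicillin replicate 3, the liver with the highest macrophage and lymphocyte sums. Of 21 tested acute phase genes, 17 circadian clock genes, 12 heat shock genes, 16 immediate early genes and 14 sex-biased genes edgeR called 0 on average. At an unadjusted p under 0.05 there were 4, 2, 1, 3 and 3 of them, which is near or under the 18.5% found over all genes tested. Markers of macrophages, lymphocytes, endothelium, stellate cells and bile ducts gave 0 calls as well, with 1, 0, 0, 3 and 1 at an unadjusted p under 0.05. DESeq2 was not counted for these lists.

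**Figure D4:**
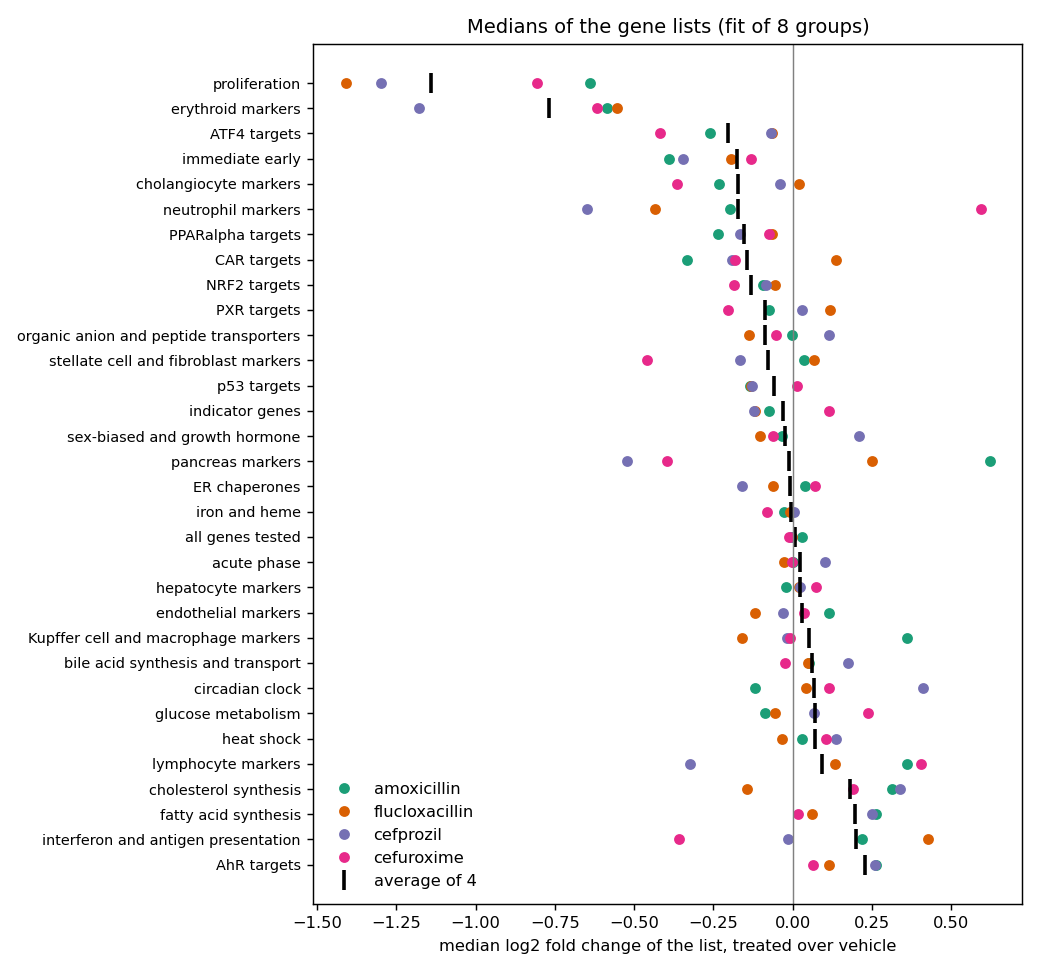
Median log2 fold change (treated over vehicle, fit of 8 groups) over each gene list for each compound (coloured points) and on average (black bars), ordered by the average. Proliferation genes (−1.14) and erythroid markers (−0.77) lie farthest from the median of all genes tested (0.01).

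Each compound by itself gave almost no call in edgeR, and more in DESeq2. Amoxicillin called 0 of 12660 genes tested in edgeR (785, or 6.20%, at an unadjusted p under 0.05; DESeq2 called 33). Flucloxacillin called 0 of 12865 (649, or 5.04%, unadjusted; DESeq2 83). Cefprozil called 1 of 12658 (0.0079%; 1303, or 10.3%, unadjusted; DESeq2 51). Cefuroxime called 1 of 12515 (0.00799%; 1845, or 14.7%, unadjusted; DESeq2 372). In 1 fit of all 8 groups, which pools the spread between animals, the counts were 0 after amoxicillin, 35 after flucloxacillin (0.258%), 44 after cefprozil (0.324%) and 55 after cefuroxime (0.405%). The 35 held 2 higher genes (0.0147%) and the 44 held 5 (0.0368%), whereas 39 of the 55 were higher (0.287%). Of the 29 proliferation genes 11 were called lower there after flucloxacillin (background 0.243%), 2 after cefprozil (likewise 0.287%), 0 after cefuroxime (0.118%) and 0 after amoxicillin. Single animals decided these counts. In its own study cefuroxime called 240 genes without vehicle replicate 4, 8 without vehicle replicate 1, 3 without treated replicate 3 and 0 without vehicle replicate 2. Flucloxacillin called 14 without treated replicate 1, 2 without vehicle replicate 4 and 1 without treated replicate 3, and cefprozil 2 without vehicle replicate 3 and 0 without any other animal.

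Trib3 (ENSRNOG00000007319), a pseudokinase induced by ATF4 under amino acid and ER stress, was the gene called after cefuroxime. It measured 7.3, 10.7, 7.19 and 8.75 CPM in cefuroxime livers, against 23.4, 20, 22.2 and 20.1 CPM in vehicle livers. The groups lay far apart with little spread, and lack of overlap was a condition for naming the gene. For Trib3 after cefuroxime, log2 fold change was −1.34 ± 0.14 (SE, n = 4 each, edgeR adjusted p = 0.0203). The call was lost without treated replicates 1 and 4 and vehicle replicates 2 and 3 in turn (adjusted p of 0.0545, 0.0735, 0.082 and 0.0617) and in the fit of all 8 groups (0.177). Other compounds did not follow: cefprozil livers had 21.2, 31.5, 32.6 and 35.8 CPM, against 22.5, 11.3 and 19.7 CPM in vehicle livers, and the amoxicillin and flucloxacillin groups overlapped widely. In the ATF4 list, Trib3 was the one gene called of 19 tested after cefuroxime, where 7 were lower at an unadjusted p under 0.05 (7.19% of all genes tested were) and the median was −0.42. In the fit of 8 groups the serine synthesis genes Phgdh and Psat1 had −2.37 and −1.88 after cefuroxime and the asparagine synthetase gene Asns −1.35, none of them called.

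The gene called after cefprozil, LOC100909441, is an entry without a described product and was named after its values were seen. It had 39, 38, 34 and 40 counts in the 4 treated livers and 0 in each of the 3 vehicle livers. Set against a floor of 3 counts per vehicle library it was at least 12.9-fold higher. In the other studies it varied between 0 and 23.6 CPM in treated livers and between 0 and 4.05 CPM in vehicle livers, and both groups of each study held animals at 0.

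Cyp7a1 was the bile acid gene with the largest single response, though it was not called. This rate-limiting enzyme of bile acid synthesis measured 356, 191, 316 and 282 CPM in cefuroxime livers, against 65.8, 29.8, 102 and 42.6 CPM in vehicle livers, without overlap. Its log2 fold change there was 2.25 with an unadjusted p of 0.000455 (edgeR, own study). It measured 61, 84.5, 69.3 and 150 CPM in cefprozil livers, against 72.2, 141 and 132 CPM in vehicle livers, a log2 fold change of −0.32. Flucloxacillin livers had 24.1, 81.8, 102 and 56.4 CPM, against 14.2, 47.5, 30.6 and 36.1 CPM in vehicle livers. Both of these comparisons overlapped, and the average over the 4 compounds had an adjusted p of 0.0817.

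Flucloxacillin, cefprozil and cefuroxime share dose, days, strain, sex and vehicle, so their effects were compared in 3 pairs, with p-values adjusted over all genes and all 3 pairs. Each compound was given in a study of its own, with batch number 1 for flucloxacillin and 3 for the others. A difference between compounds thus cannot be told apart from one between studies, or between batch numbers in the flucloxacillin pairs. EdgeR found 0 genes past the threshold in each pair, with a smallest adjusted p of 0.413. At an unadjusted p under 0.05 there were 1235 genes (9.10%) for flucloxacillin minus cefprozil, 918 (6.76%) for flucloxacillin minus cefuroxime and 1043 (7.68%) for cefprozil minus cefuroxime. DESeq2 called 2, 3 and 2 genes. This does not show that the compounds act alike. The 95% interval of the difference lay within 1 log2 unit on either side of 0 for 63.0%, 64.8% and 62.9% of the genes, with median interval half-widths of 0.54, 0.52 and 0.54 on the log2 scale. A test of any difference among all 4 compounds, amoxicillin included at its other dose, called 0 genes (smallest adjusted p of 0.203, 1024 genes or 7.54% unadjusted).

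Between the isoxazolyl penicillin and the furyl cephalosporin, Bub1 differed by −1.31 on the log2 scale (flucloxacillin minus cefuroxime, 95% interval −1.99 to −0.63, edgeR adjusted p = 0.45). Mki67 differed by −1.49 (−2.48 to −0.51, adjusted p = 0.482) and Aurka by −1.14 (−1.91 to −0.36, adjusted p = 0.502) in the same pair. For Ccnb1 the difference was −1.55 with an interval of −3.23 to 0.13, and for Cdc20 −0.47 with −1.57 to 0.64. Flucloxacillin thus had the lower estimate in each, and none passed the adjustment. Between flucloxacillin and the hydroxyphenylglycine cephalosporin cefprozil the intervals for Ccnb1 (−2.0 to 1.47), Cdkn3 (−1.67 to 1.48) and Cdc20 (−0.86 to 1.34) spanned 0 widely.

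Between the cephalosporins, which differ in side chain and in the group on the cephem ring, Cyp7a1 differed by −2.59 (cefprozil minus cefuroxime, 95% interval −4.18 to −0.997, adjusted p = 0.474). Trib3 differed by 2.10 (0.79 to 3.41, adjusted p = 0.474). Hsd17b7 had a lower estimate after flucloxacillin, by −0.71 against cefprozil (−1.23 to −0.19, adjusted p = 0.519) and by −0.81 against cefuroxime (−1.31 to −0.32, adjusted p = 0.474), and neither difference passed. For Cyp2e1 the intervals were −0.11 to 0.72 for flucloxacillin minus cefprozil, −0.13 to 0.67 for flucloxacillin minus cefuroxime and −0.44 to 0.39 for cefprozil minus cefuroxime. A difference of 1 log2 unit between these compounds lay outside each of them.

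Amoxicillin had another dose and was set beside the others without a test. Its log2 fold changes in the fit of 8 groups were −2.38 for Ccnb1, −2.43 for Cdkn3, −1.49 for Top2a and −1.07 for Cdc20, against −2.61, −2.53, −1.48 and −2.16 after cefprozil, with which it shares its side chain. For Cyp2e1 they were 0.65 after amoxicillin and 0.38 after cefprozil, and for Ccna2 −0.32 and −2.34. Effects of the 4 compounds correlated weakly across the 13577 genes, with Pearson's r between 0.09 (flucloxacillin with cefprozil) and 0.17 (amoxicillin with cefprozil). Genes are not independent, and this is a description.

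Other treatments of the series put these levels in scale. The 94 other comparisons were made the same way, with sex as a covariate where both sexes occurred. They include 1 (naproxen) that shares vehicle animals with amoxicillin. Some had other days, sexes, strains or vehicles. Lapatinib entered more than once, from the same animals under separate batch numbers, and MK-3207 at 600 and 750 mg/kg per day. The median number of called genes was 353.5, and 21 comparisons had at most 1. The median log2 fold change of the proliferation genes was below 0 in 45 of the 94 and at or below −0.5 in 18, and its median over them was 0.02, with a range of −1.81 to 1.78. These medians come from own-study fits, each over the members that passed the filter there, so the beta-lactams were not ranked among them. The erythroid median was below 0 in 73 of the 94, with a median of −0.66, and the cholesterol synthesis median was above 0 in 63, with a median of 0.24. Both therefore had the sign that most other comparisons had.

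Single genes differed in this respect. The counts below are calls in own-study fits. In such fits of the 4 beta-lactams, Trib3 after cefuroxime was called and the other genes named here were not. Cyp2e1, higher on average over the beta-lactams, was called lower in 25 of the 94 comparisons (26.6%) and higher in 1 (1.06%). Slc16a10 was called lower in 19 and higher in 7. Abcc3 was called higher in 40 and lower in 0, and Trib3, lower after cefuroxime, was called higher in 16 and lower in 0. Mki67 was called lower in 10 and higher in 3, Ccnd1 lower in 17 and higher in 3, and Hbb lower in 20 and higher in 1.

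A pair of related agents was in the series under other treatment labels. Co-amoxiclav, amoxicillin with the beta-lactamase inhibitor clavulanic acid, was given at 600 mg/kg per day and called 1689 of 12830 genes. Its proliferation median was −0.38, with 23 of 27 genes tested below 0 and 1 called lower. Loracarbef, a carbacephem in which carbon replaces the sulphur of the cephem ring, was given at 600 mg/kg per day to Han Wistar rats and called 40 of 12642 genes. Its proliferation median was −0.70, with 27 of 29 genes tested below 0 and 0 called. Both medians had the sign of the 4 beta-lactams.

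**Figure D5:**
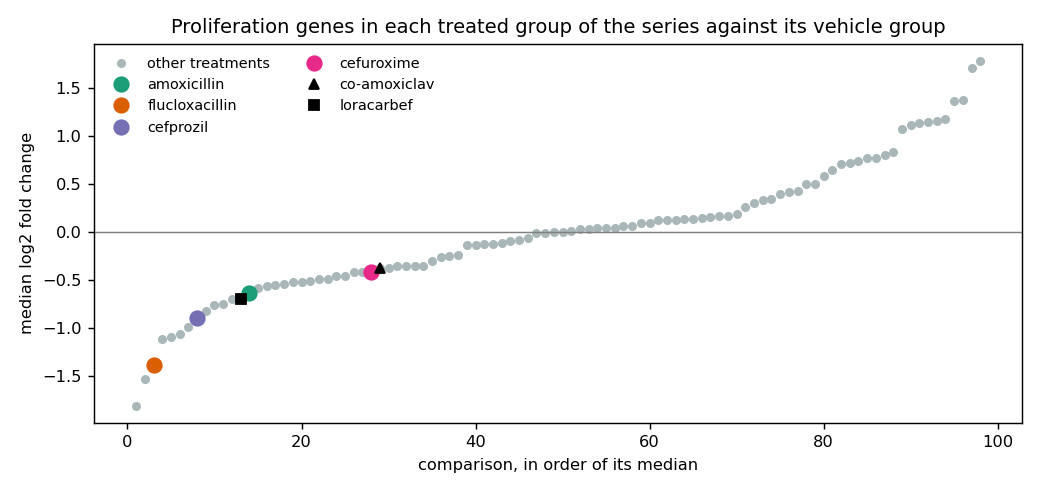
Median log2 fold change of the proliferation genes in each treated group of the series against its own vehicle group (own-study fits, each over the members tested there), in ascending order, with the 4 beta-lactams in colour, co-amoxiclav as a triangle and loracarbef as a square. The 4 beta-lactams lie between −1.39 and −0.41, against −1.81 to 1.78 over the 94 other comparisons. The medians rest on different members, so their order is a description with no test.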

How the data were processed

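Liver RNA was extracted with the MagMAX system and sequenced as TruSeq Stranded mRNA libraries, per the labels' protocols. The deposited gene tables hold expected counts per gene as the authors estimated them (87.99% of non-zero values whole), and the submitters' processing notes name the build Rnor 6.0. The aligner and quantifier are not given in the sources used here. The Ensembl table (32893 rows) was used, rounded, after 1 row that summed the 10 Ugt1a transcripts was dropped; a RefSeq table of 34335 rows served as an alternative. CPM values are counts over scaled library sizes.

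edgeR 4.0.16 (R 4.3.3, limma 3.58.1) was run with its expression filter, TMM scaling, robust quasi-likelihood fits and Benjamini-Hochberg adjustment at 0.05. Each compound was fitted with its own vehicle group. A fit of 8 groups (31 animals) gave the average of the 4 effects, their differences and 3 pairs at matched dose. DESeq2 1.42.0, other scaling, filters, RNA integrity as a covariate and left-out groups or animals were alternatives. Tested on simulated data, the average recovered 63.0% of genes changed by 0.5 and 97.0% of those changed by 1 on the log2 scale, and the flucloxacillin fit 60.0% at 1. The pair of flucloxacillin and cefprozil recovered 39.0% at 1. Each simulated gene rose by the same amount in every treated animal, or in every flucloxacillin animal for the latter fits, with counts drawn at the fitted spread. Falls, outlying livers and effects that vary between compounds were not simulated, so recovery of such changes is not known.

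Genes were named by size of p-value (up to 8 per direction for a compound, up to 12 for the average, mean of at least 5 CPM), as indicator genes or as called list members. Single calls, Cdkn3 and LOC100909441 were named after their values were seen. Of 521 entries in 31 lists, 500 matched a row, and 1 further gene is not reported here. Members and lists were chosen with earlier results of these data known. Libraries held 14.8 to 39.077 M counts. The labels name 1 animal per library, and none of the 45 pairs of libraries within a group matched within sampling noise: their noise index (mean squared deviation of the counts over the binomial variance) ran between 25.9 and 91.2, where pure counting gives about 1. The printed SEs and intervals come from the fits and include the spread between animals, whereas the floor of 3 counts covers counting error only.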

Additional observations from a re-analysis of the deposited data

Results flagged for a closer look

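In 25 of 413 groups of 4 animals (6.05%) 1 animal lay far from the other 3. Chance gives about 1 in 20, so the share is close to it. All are CPM values of 1 animal.

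In amoxicillin livers, the highest Abcc3 value was 16.9 and the highest skeletal muscle sum 53.5, and in their vehicle livers the lowest Dsg2 value was 72.6. In flucloxacillin livers, the highest values of Cdk1, Prc1 and Trib3 were 0.673, 1.27 and 30.4. In their vehicle livers the highest values of Top2a and Prc1 were 9.44 and 4.89, and the lowest Hbb value was 169. In cefprozil livers, the highest values were 22.7 for Abcc3, 6.14 for Alas2, 0.604 for Cdk1, 277 for Hbb, 0.776 for Plk1 and 0.97 for Prc1, and the lowest Pdia6 value was 166. In cefuroxime livers, the highest values were 1600 for Cyp1a2, 4.13 for Ift27 and 116 for Slc16a10, and the lowest were 0.0545 for Ccna2 and 11.3 for Coq8b. In their vehicle livers, the highest values were 5.4 for Alas2, 1.43 for Birc5, 1010 for Cyp1a2 and 190 for Cyp2b1.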

How the results depend on the processing

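Of 29 proliferation genes 14 to 20 were called lower in the alternatives tried, and 17 to 20 without each animal in turn. The count of 414 genes for the average was 679 in DESeq2, 203 with RNA integrity as a covariate, 195, 177 and 93 without amoxicillin, cefprozil and cefuroxime, and 70 at an absolute log2 of at least 1. Without single animals it ran between 263 (without cefprozil vehicle replicate 1) and 727 (without cefprozil treated replicate 1). It was 268 without cefprozil treated replicate 4 and 275 without cefuroxime vehicle replicate 3. Counts for single compounds depended on the fit. Pooling 8 groups gave 35 genes for flucloxacillin, 44 for cefprozil and 55 for cefuroxime. With no filter on low counts there were 1 for amoxicillin, 25 for flucloxacillin and 13 for cefuroxime, and with RefSeq genes there were 10 for flucloxacillin, 0 for cefprozil and 2 for cefuroxime. RNA integrity as a covariate gave 0 for cefprozil, 258 for cefuroxime and 1 gene that differed among the 4 compounds. DESeq2 gave 33, 83, 51 and 372 for amoxicillin, flucloxacillin, cefprozil and cefuroxime, and 2, 3 and 2 for the pairs. Without single animals the ranges were 0 to 0 for amoxicillin, 0 to 14 for flucloxacillin, 0 to 2 for cefprozil and 0 to 240 for cefuroxime. They were 0 to 33 for the difference among 4 (33, 19 and 2 without cefprozil vehicle replicates 2 and 1 and cefuroxime vehicle replicate 4). For the pairs they were 0 to 5 for flucloxacillin minus cefprozil and 0 to 2 for cefprozil minus cefuroxime, both highest without cefprozil vehicle replicate 2, and 0 to 8 for flucloxacillin minus cefuroxime, highest without cefuroxime vehicle replicate 4. The cause of these moves was not tested. Of 56 named calls 20 held in every setting that tested them, 36 were lost in at least 1 and 0 reversed. No paired analysis was possible because the replicate numbers were given in accession order and pair no animals.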

Other observations

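Genes of the hepatocytes around the central vein were examined as a list chosen after the rise of Cyp2e1 was seen, so their values are a description with no test. Of 16 such genes 15 were tested, 12 lay above 0 on average, and 7 were called higher (1.33% of all genes tested were) with 0 lower. Beside Cyp2e1, Cyp1a2 and Cyp27a1 these were Glul, the glutamine synthetase gene (log2 fold change 0.26), Oat, ornithine aminotransferase (0.73), the glutamate transporter gene Slc1a2 (0.74) and the ammonium transporter gene Rhbg (0.58). The count of 7 includes Cyp2e1, the gene that prompted the list. Oat was −0.07 after cefprozil. The 3 genes below 0 on average were Lect2 (−0.195, lower after each compound), Lgr5 (−0.07) and Nkd1 (−0.01), and none of them passed. The median of the list was 0.26, and 0.26, 0.26, 0.16 and 0.38 after amoxicillin, flucloxacillin, cefprozil and cefuroxime. Of 13 genes of the hepatocytes near the portal vein edgeR called 0, 7 lay above 0 and the median was 0.03.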
